A study of Mus musculus with 6 samples.

Results

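The endothelin system was examined in endothelial cells of mouse skin from samples labelled as wild type or as knockout of APJ, the apelin receptor encoded by Aplnr. Its 7 genes were listed by name with differences between these samples already in view, so the set counts as chosen by those differences, although which genes' values decided it is not recorded: the ligands Edn1, Edn2 and Edn3, the receptors Ednra and Ednrb, and the converting enzymes Ece1 and Ece2. All probes whose RefSeq accession belongs to one of these genes were used, which gave 8 probes of 55681, or 7 of the 20018 genes named on the array. The study compared 3 samples labelled as wild type with 3 labelled as APJ KO, all of strain C57Bl/6J and without treatment after the cells were sorted by fluorescence. Each sample was hybridised to 1 one-colour Agilent array after labelling of 0.1 µg of RNA with Cy3. The labels number 1 mouse per sample. They do not say how Aplnr was deleted, whether in all cells or by a Cre, which surface markers defined the sort, or whether embryos were pooled. An embryonic stage appears in the names given to the scanner output but in no label. With 6 arrays the precision is limited, and a p-value reflects no more than the scatter among them.

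Endothelins are short vasoactive peptides cut from larger precursors. Furin-like proteases release an inactive big endothelin, and the membrane metalloproteases ECE-1 and ECE-2 trim it to the active peptide. The peptides act on a pair of G-protein-coupled receptors. The ETA receptor, encoded by Ednra, is best known from smooth muscle and mesenchyme, where it drives contraction. The ETB receptor, encoded by Ednrb, sits on endothelium, where it clears the peptide and evokes nitric oxide and prostacyclin release, and on melanoblasts and other neural crest cells. Endothelial cells are a main source of endothelin-1, whereas endothelin-3 acts through ETB on melanoblasts in developing skin.

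In these cells the transcripts for 1 converting enzyme and 1 receptor were higher in the samples labelled as knockout, while the ligand gene read on all arrays, Edn1, and the receptor gene Ednra overlapped between genotypes. Ece1 was 2.66-fold higher in the knockout and Ednrb was 2.28-fold higher. Edn2 and Edn3 were well above background on 1 of 6 arrays each and Ece2 on 3 of 6. Expression is given throughout as log2 signal, meaning the log2 intensity of a probe minus the 75th percentile of log2 intensity on the same array, so that 0 marks that percentile. A difference is the knockout mean of log2 signal less the wild-type mean, and SE is its standard error in the fit. SD is the standard deviation over the 3 arrays of a genotype. Of the 7 genes, 4 were well above background on every array of at least 1 group by the scanner software's call and entered the test. Ece1 and Ednrb passed limma's threshold, an adjusted p under 0.05 over all 24243 genes and unnamed probes tested, and both lay higher. The same threshold was passed by 0.553% of everything tested, 0.367% upward and 0.186% downward. At an unadjusted p under 0.05 the count was also 2 of 4, against 8.02% of everything tested. The genes were proposed with results of this contrast known, so these counts describe them and test nothing about the system as a whole. No p-value is attached to a single endothelin gene for that reason. When the replicate number was added to the model as a block, 0 of the 4 passed, and 5 genes or probes passed in all. With the slide as a block instead, Ece1 and Ednrb both passed, among 286 genes or probes in all (1.18% of everything tested). Leaving out 1 array at a time left Ece1 past the threshold when replicate 3 of either genotype was dropped, and neither gene in the other 4 fits.

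**Figure D1:**
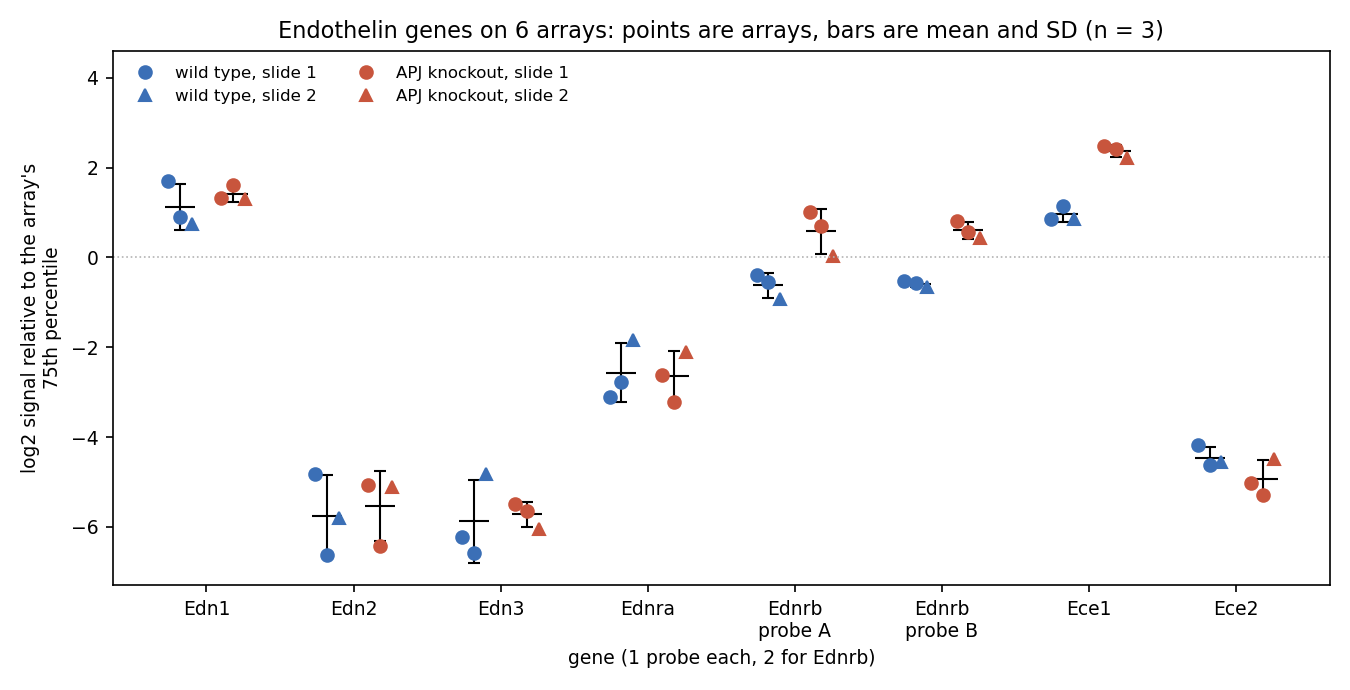
Log2 signal of each endothelin gene relative to the 75th percentile of its array (y axis), by gene and, for Ednrb, by probe (x axis; probe A is A_52_P577662, probe B is A_55_P2089710). Points are the 6 arrays, coloured by genotype and shaped by slide, and bars give the mean and SD of 3 arrays; the knockout arrays lie above all wild-type arrays for Ece1 and both Ednrb probes, while the other genes overlap.

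Aplnr itself served as the check of the labels. It read 3.35, 3.77 and 3.82 in wild type and 1.89, 1.71 and 2.26 in the knockout, so the genotypes did not overlap. The knockout arrays were still well above background, at 0.309 of the wild-type level, and the labels do not place the probe relative to the deletion. The difference was -1.69 ± 0.19 (SE, n = 3 each; adjusted p = 0.0236 by limma). In the blocked model it did not pass (limma adjusted p = 0.0787). The share of probes well above background ran from 50.3% to 57.97% over the arrays, and the 75th percentile from 251.8 to 399.7 units of intensity. Replicates 1 and 2 of both genotypes were on slide 1 and replicate 3 of both on slide 2, each slide having been scanned at 1 time. All 12 markers of endothelial identity were well above background on all 6 arrays. Their linear signals, each relative to the 75th percentile, summed to between 921 and 1010 in wild type and between 956 and 1040 in the knockout. Egfl7 gave 47.6% to 50.9% of that sum on each array and Cldn5 12.1% to 13.6%, so it says little of the other markers.

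Edn1, on chromosome 13, encodes preproendothelin-1, the precursor of the main endothelial endothelin. Its probe (accession NM_010104) read 1.71, 0.91 and 0.75 in wild type and 1.31, 1.61 and 1.30 in the knockout. Wild type replicate 1 was the highest of the 6 arrays and wild type replicates 2 and 3 the lowest, so the knockout values fell inside the wild-type range. The means were 1.12 ± 0.51 and 1.41 ± 0.18 (SD, n = 3 each). Their difference of 0.29 ± 0.26 (SE) has a 95% interval from -0.33 to 0.90, which leaves changes of either direction possible. The difference was 0.155 within slide 1 and 0.55 within slide 2. Leaving out wild type replicate 1 gave 0.58, and leaving out wild type replicate 3 gave 0.10.

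Edn1 was the only endothelin gene whose probe was repeated on the array, so its spot-to-spot error can be given. It occupied 10 spots per array, of which the scanner software marked 1 as an outlier in wild type replicate 2 and 1 in APJ knockout replicate 1. The SD over the remaining spots of an array lay between 0.0649 and 0.0833. In wild type replicate 1 the spots ran from 1.63 to 1.84, and in wild type replicates 2 and 3 together from 0.63 to 1.05, with no overlap. The SD of 0.51 among the wild-type samples also holds labelling and hybridisation error, which the spots of 1 array share.

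**Figure D2:**
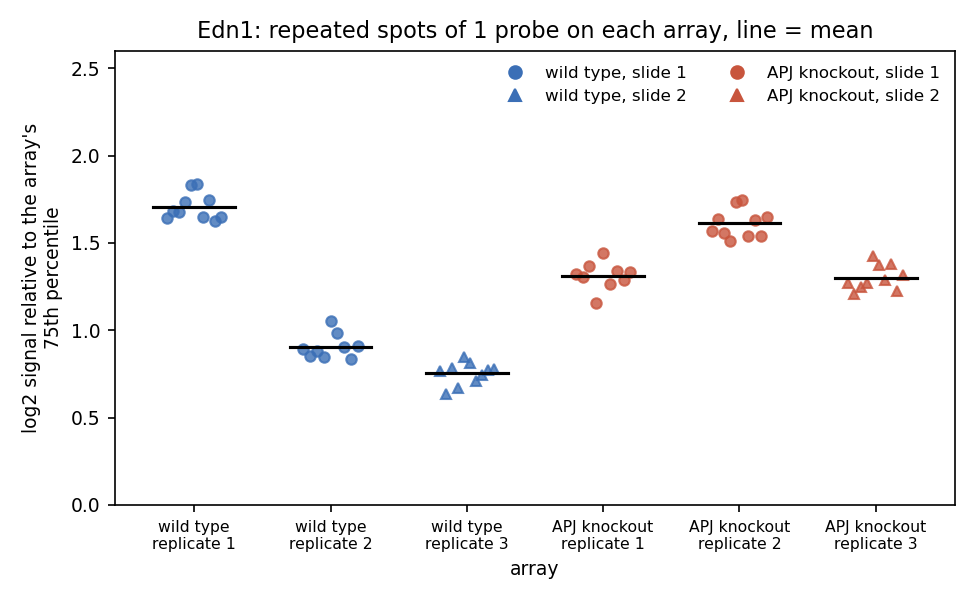
Log2 signal of the repeated Edn1 spots (y axis, relative to the 75th percentile of the array) on each of the 6 arrays (x axis); points are spots and lines their means, with outlier spots left out. Spots of 1 array lie close together, while wild type replicate 1, from 1.63 to 1.84, stands above wild type replicates 2 and 3.

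The window around the Edn1 start is shown because known regulatory elements of this gene are hypoxia, AP-1 and GATA motifs. It is taken from RefSeq on GRCm38.p6 and spans 250 bases before to 50 bases after the annotated start, chr13:42301226-42301525 on the + strand. Capitals mark matches to 4 motifs searched on both strands. The hypoxia response core was spelled ACGTG, with GCGTG as its other form. The AP-1 motif was spelled TGANTCA, and the variant known from Edn1, TGACTAA, was searched beside it. The GATA motif was spelled AGATAA. The forkhead motif was spelled GTAAACA.
Edn1: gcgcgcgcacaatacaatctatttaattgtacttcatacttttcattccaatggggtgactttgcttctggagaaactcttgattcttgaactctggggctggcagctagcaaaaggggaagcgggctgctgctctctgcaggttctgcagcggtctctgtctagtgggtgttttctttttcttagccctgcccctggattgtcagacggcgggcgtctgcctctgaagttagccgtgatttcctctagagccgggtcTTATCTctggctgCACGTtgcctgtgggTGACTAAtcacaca
Counting the first annotated base as 0, a GATA match began at 8, a hypoxia core at 21 and an AP-1 match at 36. All lay after the annotated start, and no forkhead match was found. Whether transcription begins at that annotated base in these cells was not examined. Of 32851 windows of this length in the RefSeq table, 43.8% hold the hypoxia core, 9.9% an AP-1 match, 11.2% a GATA match and 3.65% a forkhead match. A match describes the letters and is no evidence of binding.

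Edn2, on chromosome 4, and Edn3, on chromosome 2, encode the precursors of endothelin-2 and endothelin-3. Edn2 (NM_007902) read -4.82, -6.61 and -5.81 in wild type and -5.06, -6.43 and -5.11 in the knockout. It was well above background on 1 of the 6 arrays, APJ knockout replicate 3. Edn3 (NM_007903) read -6.23, -6.58 and -4.82 in wild type and -5.49, -5.64 and -6.04 in the knockout, and was well above background in wild type replicate 3 alone. Both genes were therefore at the limit of the array in these cells, and no ratio between genotypes is given for them.

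Ece1, on chromosome 4, encodes endothelin-converting enzyme 1, the main protease that activates big endothelin-1. Its probe (NM_199307) read 0.86, 1.15 and 0.86 in wild type and 2.47, 2.41 and 2.22 in the knockout. The 3 knockout arrays all lay above the 3 wild-type arrays, on either slide. The means were 0.96 ± 0.17 and 2.37 ± 0.13 (SD, n = 3 each), a difference of 1.41 ± 0.12 (SE). It was 1.43 within slide 1 and 1.36 within slide 2. Of everything tested, 0.359% had a larger upward difference. Which of the transcripts that start at the several Ece1 promoters the single probe reads was not examined.

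The Ece1 start windows are shown because the gene has alternative promoters, each with its own first exon, and because it is the endothelin gene with the largest difference among the 4 tested. RefSeq lists 4 start windows of Ece1 on chromosome 4, + strand of GRCm38.p6. Windows 1 and 2 overlap, so windows 1, 3 and 4 are printed, at chr4:137861987-137862286, chr4:137913308-137913607 and chr4:137920543-137920842, with the same motifs in capitals.
Ece1 window 1: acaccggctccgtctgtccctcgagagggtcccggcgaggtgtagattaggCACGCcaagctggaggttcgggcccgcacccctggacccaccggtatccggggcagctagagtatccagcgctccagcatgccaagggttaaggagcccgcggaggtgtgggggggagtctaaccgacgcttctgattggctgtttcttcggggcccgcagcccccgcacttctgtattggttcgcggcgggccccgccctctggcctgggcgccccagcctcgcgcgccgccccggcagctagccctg
Ece1 window 3: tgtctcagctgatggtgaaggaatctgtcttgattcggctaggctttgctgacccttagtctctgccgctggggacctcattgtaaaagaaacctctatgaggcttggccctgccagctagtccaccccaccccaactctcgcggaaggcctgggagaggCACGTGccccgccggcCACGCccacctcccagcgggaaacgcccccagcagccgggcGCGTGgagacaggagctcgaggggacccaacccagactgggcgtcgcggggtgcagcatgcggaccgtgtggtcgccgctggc
Ece1 window 4: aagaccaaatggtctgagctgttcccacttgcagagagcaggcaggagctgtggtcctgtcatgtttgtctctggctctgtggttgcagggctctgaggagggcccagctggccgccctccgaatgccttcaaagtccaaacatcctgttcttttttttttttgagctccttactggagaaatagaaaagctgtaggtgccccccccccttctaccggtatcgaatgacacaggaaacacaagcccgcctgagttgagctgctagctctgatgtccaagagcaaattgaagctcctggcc
Window 3 held 4 matches to the hypoxia core counted on both strands. A pair of them were the overlapping readings of 1 palindrome that began at position -90 from the start. Windows 1 and 2 held the same single match and window 4 held none, and no window held a match to the other motifs. GC content was 69.3% in window 1, 65.3% in window 3 and 53.0% in window 4, against a median of 52.7% over all windows.

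Ece2, on chromosome 16, encodes the related converting enzyme ECE-2, an intracellular protease best known from neural tissue. Its probe (NM_139293) read -4.19, -4.63 and -4.55 in wild type and -5.02, -5.28 and -4.48 in the knockout. It was well above background in wild type replicates 1 and 3 and in APJ knockout replicate 3, and the groups overlapped. No ratio is given, since neither group was read above background on all its arrays. RefSeq also lists a transcript that runs from the neighbouring gene Eef1akmt4 into Ece2, and the probe may read it too.

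Ednrb, on chromosome 14, encodes the ETB receptor and was read by 2 probes of the same accession (NM_007904). On probe A_55_P2089710, the brighter over all arrays, wild type read -0.52, -0.57 and -0.66, and the knockout 0.81, 0.57 and 0.43. On probe A_52_P577662 they read -0.40, -0.54 and -0.93 in wild type and 1.01, 0.70 and 0.03 in the knockout. On both probes every knockout array stood above every wild-type array, and replicate 3, on slide 2, was the lowest of its group.

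The means on the brighter probe were -0.59 ± 0.07 and 0.60 ± 0.19 (SD, n = 3 each), a difference of 1.19 ± 0.12 (SE). On the other probe the difference was 1.21 ± 0.27 (SE), so the probes gave nearly the same size with different spread. Within slide 1 the brighter probe differed by 1.24 and within slide 2 by 1.10, and the other probe by 1.33 and 0.96. Of everything tested, 0.544% had a larger upward difference than the brighter probe. Of the 4 tested endothelin genes, 2 had genotypes that did not overlap, Ece1 and Ednrb, both with the knockout above. Among everything tested 12.2% did not overlap, 6.36% with the knockout above and 5.85% with it below. The same 2 genes differed by at least 1 on the log2 scale upward, as did 0.792% of everything tested.

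The start window of Ednrb is shown for comparison with Ece1, the other endothelin gene past the threshold. It lies at chr14:103843652-103843951 on the - strand of GRCm38.p6, and it is printed 5′ to 3′ along the gene with the same motifs in capitals.
Ednrb: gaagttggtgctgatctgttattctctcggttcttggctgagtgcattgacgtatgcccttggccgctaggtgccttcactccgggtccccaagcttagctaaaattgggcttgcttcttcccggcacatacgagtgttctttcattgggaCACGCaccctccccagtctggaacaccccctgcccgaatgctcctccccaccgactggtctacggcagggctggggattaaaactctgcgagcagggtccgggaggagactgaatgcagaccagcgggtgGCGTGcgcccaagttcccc
It held 2 matches to the hypoxia core, beginning at positions -99 and 31 from the annotated start, and none to the AP-1, GATA or forkhead motifs. The hypoxia core stands in 43.8% of all windows, and at that share its presence in Ednrb and in Ece1 singles out neither.

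Ednra, on chromosome 8, encodes the ETA receptor of smooth muscle and mesenchyme. Its probe (NM_010332) read -3.11, -2.76 and -1.84 in wild type and -2.62, -3.22 and -2.10 in the knockout. Replicate 3, on slide 2, was the highest of each group, and the genotypes overlapped. The means were -2.57 ± 0.66 and -2.65 ± 0.56 (SD, n = 3 each). Their difference of -0.08 ± 0.40 (SE) has a 95% interval from -1.03 to 0.87, wide enough to hold sizeable changes in either direction. The difference was 0.01 within slide 1 and -0.27 within slide 2.

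**Figure D3:**
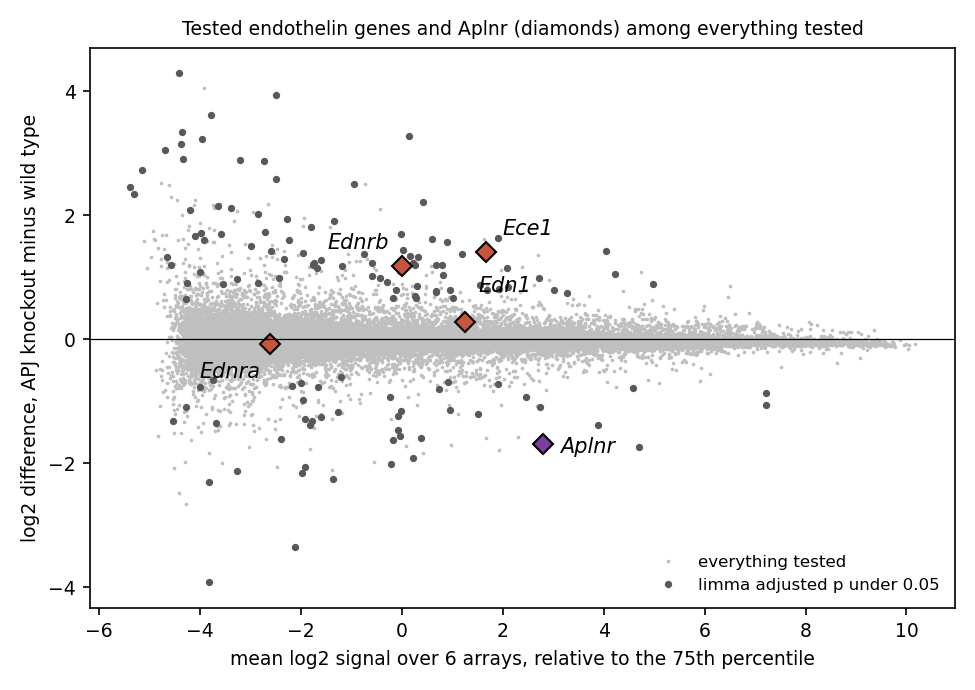
Log2 difference, APJ knockout minus wild type (y axis), against mean log2 signal over 6 arrays (x axis) for everything tested. Diamonds mark the 4 tested endothelin genes and Aplnr, and dark points mark an adjusted p under 0.05: Ece1 (1.41) and Ednrb (1.19) lie in the upper part, Edn1 (0.29) and Ednra (-0.08) within the cloud, and Aplnr (-1.69) below it.

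Genes that make, couple or answer to endothelins were taken from 6 lists holding 79 genes. All 79 were on the array and 65 were tested. None rose and 1, Pcsk5, fell past the threshold, against 0.367% and 0.186% of everything tested. At an unadjusted p under 0.05 the count was 7, or 10.8%, against 8.02%. The median difference over the 65 was -0.00836, and over everything tested it was -0.0199.

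Among 7 tested genes listed for peptide processing and clearance, 0 rose and 1 fell past the threshold, with a median difference of 0.04. The list does not hold every peptidase gene. Scpep1, a serine carboxypeptidase gene named below for its likeness to Ednrb, was not on it and differed by 1.63 ± 0.17 (SE, n = 3 per group). Pcsk5, a furin-like proprotein convertase, read -0.87, -0.90 and -0.94 in wild type and -1.46, -1.61 and -1.47 in the knockout. The difference was -0.61 ± 0.08 (SE, n = 3 each; adjusted p = 0.0455 by limma), and the genotypes did not overlap. That call was lost in the blocked model and whenever 1 array was left out. Pcsk6, another convertase, went the other way by 0.56 ± 0.11 without passing (limma adjusted p = 0.121), and passed with the slide as a block. Kel, a metalloprotease that cleaves big endothelin-3, differed by 0.80 ± 0.49. Furin, the convertase that cuts preproendothelin, differed by 0.04.

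Of 24 tested genes of receptor coupling and desensitisation, 0 passed, with a median of -0.05 and 17 of them below 0. Itpr3 and Itpr2, calcium release channels opened by inositol trisphosphate, differed by -0.24 ± 0.10 and -0.20 ± 0.09, and the kinase gene Prkca by 0.27 ± 0.16 (SE, n = 3 per group). Gnaq and Gna11, which encode the G-protein subunits that couple endothelin receptors to phospholipase C, differed by -0.04 and 0.01. Of the 16 regulators of Edn1 transcription, 0 passed and the median was 0.04. Vezf1, a zinc finger activator of the Edn1 promoter, differed by 0.13 ± 0.08, Klf4 by 0.27 ± 0.19 and Klf2, a factor induced by flow that represses Edn1, by -0.16 ± 0.13.

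Of the 10 genes of the nitric oxide and prostacyclin response, 0 passed and the median was 0.05. Ptgis, the prostacyclin synthase, read -0.92, -0.81 and -0.87 in wild type and -1.43, -1.19 and -1.43 in the knockout. The genotypes did not overlap, and the difference of -0.48 ± 0.10 (SE, n = 3 per group) did not pass (limma adjusted p = 0.148). Prkg1, the kinase activated by cyclic GMP, differed by 0.40 ± 0.16, and Gucy1b1, a subunit of the guanylate cyclase that senses nitric oxide, by 0.66 ± 0.26. Nos3, the endothelial nitric oxide synthase, differed by -0.17 ± 0.09.

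Neural crest partners of the Edn3 and Ednrb pair had a median of -0.11 over 6 tested genes, 0 of which passed. Pax3, a regulator of melanoblasts, differed by -0.64 ± 0.15 (SE, n = 3 each; adjusted p = 0.178 by limma), and passed with the slide as a block. Kitl, the ligand of the melanoblast receptor KIT, differed by -0.23 ± 0.10 and Sox10, a neural crest factor, by -0.11 ± 0.08. Craniofacial targets of Edn1 and Ednra were mostly unread: 2 of 6 were tested, Mef2c at 0.13 ± 0.14 and Dlx3 at -0.01 ± 0.09.

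**Figure D4:**
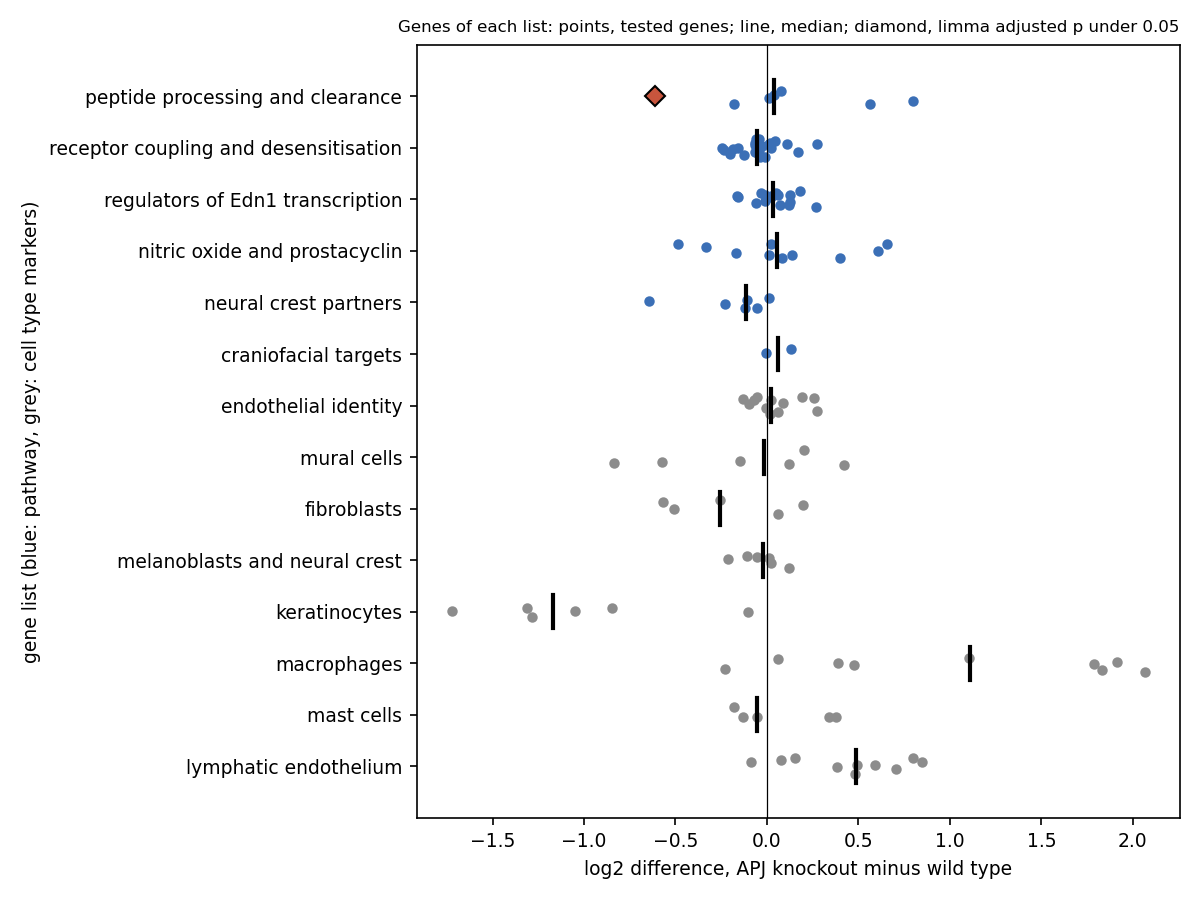
Log2 difference, APJ knockout minus wild type (x axis), of the tested genes in each list (y axis), with blue points for pathway lists, grey points for cell type markers, a line for each median and a diamond for limma adjusted p under 0.05. Pcsk5 (-0.61) is the only diamond, and the 6 pathway medians lie between -0.11 and 0.06. Macrophage and lymphatic markers lie to the right (1.11 and 0.49), and the macrophage median includes markers tested only through the knockout group.

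Because ETB is also made by neural crest cells and ETA by mural cells, markers of other cell types were read beside the members. Of 12 melanoblast and neural crest markers, 6 were well above background on all arrays, and Erbb3 and Foxd3 on none. Their summed linear signal was 5.68 to 6.64 in wild type and 5.53 to 6.15 in the knockout, and 3 of 6 tested markers lay on each side of 0. Kit, which mast cells also make, gave 68.9% to 79.5% of that sum on each array, so the sum says little of the other markers. The part of neural crest cells in the Ednrb difference was not tested. Of 10 mural markers, 6 were well above background on all arrays and Des and Myh11 on none. The mural sum was 3.39 to 4.36 in wild type and 3.61 to 4.36 in the knockout. Tagln gave 38.8% to 52.8% of that sum on each array. Of the 6 tested mural markers 3 lay on each side of 0, from -0.84 for Notch3 to 0.42 for Abcc9. Of 8 fibroblast markers 4 were read on all arrays, with sums of 2.26 to 3.51 and 1.85 to 4.42. In bulk samples a change in the number of cells of a type and a change in RNA per cell cannot be told apart.

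Markers of macrophages and of lymphatic endothelium mostly lay above 0, the side of Ece1 and Ednrb, with 0 past the threshold in either list. Among 9 tested macrophage markers the median difference was 1.11 with 8 above 0 and 7 with an unadjusted p under 0.05, against 8.02% of everything tested. The summed linear signal was 9.85 to 13.1 in wild type and 10.6 to 11.2 in the knockout. Csf1r, the receptor for a macrophage growth factor, gave 57.9% to 73.7% of it and differed by -0.23. Dim markers with little weight in the sum differed more: Adgre1 by 2.07, C1qc by 1.91, Lyz2 by 1.83 and C1qa by 1.79. These dim markers were well above background on all 3 knockout arrays but on only 1 or 2 wild-type arrays. They entered the test only through the group where they were high, so the filter biased the count and the median upward. Markers read on all 6 arrays differed by 1.11 for Aif1, 0.48 for C1qb, 0.39 for Ptprc, 0.06 for Mrc1 and -0.23 for Csf1r. Among 10 lymphatic markers, a list chosen after the data were seen, the median was 0.49 with 9 above 0 and 7 with an unadjusted p under 0.05. The lymphatic sum was 638 to 727 in wild type and 692 to 765 in the knockout, of which the chemokine gene Ccl21a, differing by 0.08, gave 74.4% to 80.3%. Keratinocyte markers lay the other way, with a median of -1.17 over 6 tested, sums of 10.3 to 33.2 in wild type and 10.4 to 11.2 in the knockout. That median was -0.46 when wild type replicate 3 was dropped and -1.83 when replicate 1 was, and it was -0.24 within slide 1 and -2.67 within slide 2. Trp63, differing by -0.10, gave 26.2% to 83.0% of the keratinocyte sum on each array. Mast cell markers had a median of -0.06 over 5 tested, and leaving out 1 array moved that median between -0.62 and 0.76. Their sums were 22.3 to 103 in wild type and 22.2 to 76.9 in the knockout. The sum for APJ knockout replicate 1 lacks Cma1, which had no value on that array, so the ranges are not over quite the same genes. The part of these cells in the Ece1 and Ednrb differences was not tested.

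The genes that ran most like each tested endothelin gene were taken by Pearson's r of log2 signal over the 6 arrays, among 12999 named genes compared. The arrays share slides and fall into 2 genotypes, and with so few arrays high values of r arise easily, so r is given as a description. Closest to Ece1 were Tgfb3 (r = 0.998), Gys1 (0.995) and Plod3 (0.995), which encode a TGF-β ligand, the muscle-type glycogen synthase and a collagen lysyl hydroxylase. Tgfb3 read 0.08, 0.19 and 0.11 in wild type and 0.68, 0.62 and 0.56 in the knockout. Closest to Ednrb were Tnfaip2 (r = 0.998), Scpep1 (0.996) and Tap2 (0.995), of which Tap2 encodes a peptide transporter of antigen presentation and Scpep1 a serine carboxypeptidase. Scpep1 read 1.06, 1.25 and 0.96 in wild type and 3.04, 2.67 and 2.45 in the knockout. Closest to Edn1 were Sdcbp2 (0.986), Peli1 (0.982) and Agmo (0.979), and closest to Ednra were Ino80c (0.996), Bscl2 (0.995) and Arcn1 (0.992). Being chosen for likeness, the neighbours of Ece1 and Ednrb split by genotype as those genes do. The neighbours of Edn1 differed by 0.11 for Sdcbp2, 0.03 for Peli1 and 0.40 for Agmo, and those of Ednra by -0.01 for Ino80c, -0.02 for Bscl2 and 0.0016 for Arcn1.

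**Figure D5:**
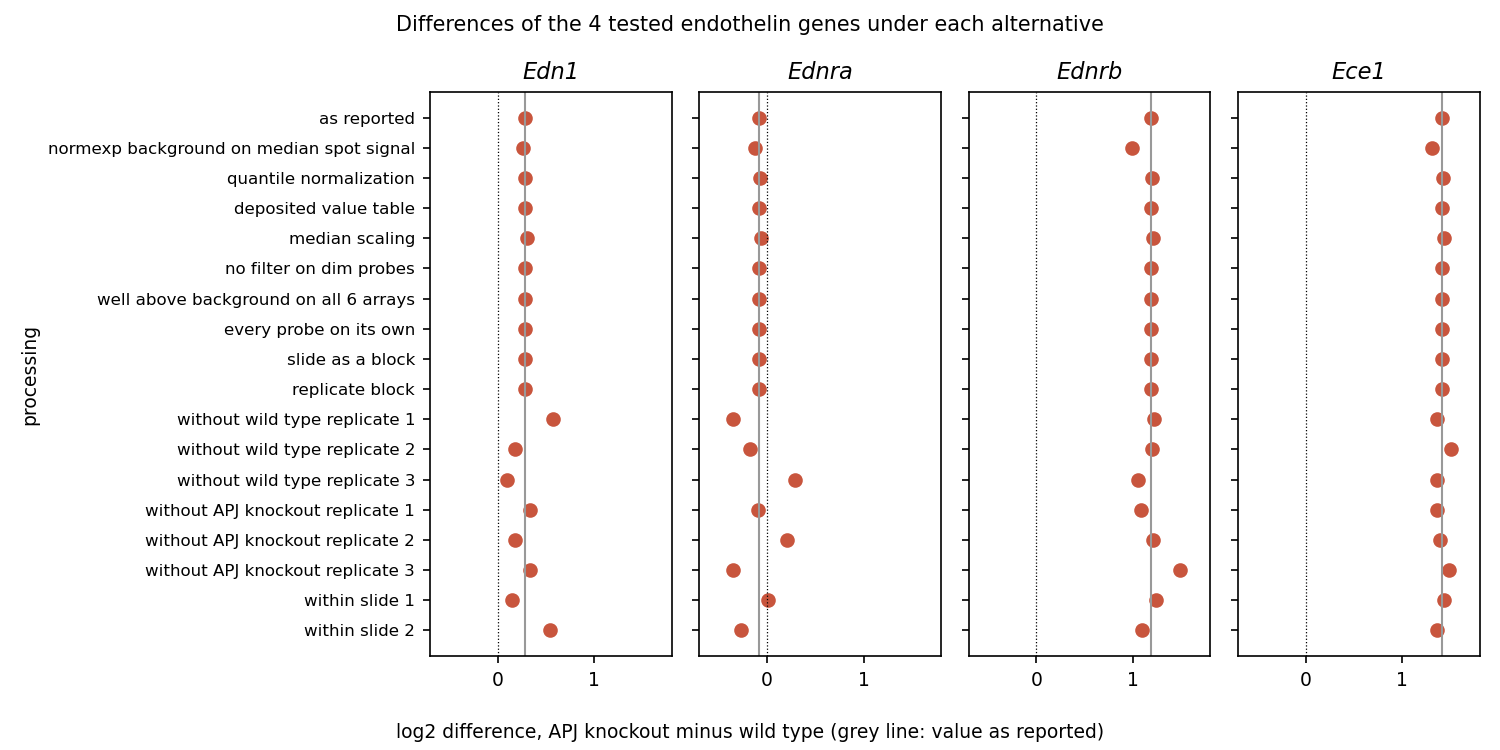
Log2 difference, APJ knockout minus wild type (x axis), of the 4 tested endothelin genes under each alternative processing (y axis), with a grey line at the value as reported. Ece1 stays between 1.31 and 1.51 and Ednrb between 0.99 and 1.48, Edn1 between 0.10 and 0.58, and Ednra lies on both sides of 0, from -0.35 to 0.29.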

How the data were processed

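Fluorescence intensity was measured on 6 arrays, 3 per genotype. Per the file headers, spot intensity on a linear scale came from Agilent Feature Extraction 10.7.3.1, with background removed and no scaling across arrays. In the table of values that the authors deposited, each array's intensity is rescaled by its own factor, 2.29 to 3.69. That table served as an alternative. No spot was saturated, and 126 to 179 outlier spots of 59305 non-control spots per array were left out. Intensities were taken to log2, the array's 75th percentile was subtracted and spots of a probe were averaged. Probes well above background on every array of at least 1 group were tested, the brightest probe standing for its gene. Accessions were matched without version to RefSeq (GRCm38.p6, for names and start windows only; the array follows another build), which named 47.4% of probes. Genotype was fitted with limma 3.58.1 in R 4.3.3 (two-sided, Benjamini-Hochberg over 24243), and the code was tested on simulated data.

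The members and gene lists were chosen with earlier results of these data known. Named genes are all members with every probe, Aplnr, up to 3 genes with the smallest unadjusted p and any past the threshold in each pathway list, and, for each member tested and well above background on all 6 arrays, the 3 named genes of highest r (no members, clone or prediction names). Furin, Gnaq, Gna11 and Nos3 were added after their values were seen. All reported differences and SEs come from the fit without a replicate block. The blocked fit is an alternative, given beside calls it changes, because same-numbered samples deviated together from their group means (r = 0.233, 0.152 and 0.649 for numbers 1 to 3, taken from the sample titles). Differently numbered samples on slide 1 did so too (0.358 and 0.279). Protein sequences were not analysed here. Alternatives covered background, scaling, filters, probes, blocks, slides and single arrays left out.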

Additional observations from a re-analysis of the deposited data

How the results depend on the processing

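Of 17 alternatives, 6 leave the size of a difference as it is by construction. In the other 11, Ece1, Ednrb and Edn1 kept their sign, and Ednra changed sign in 3. Without 1 array the differences ran from 1.36 to 1.51 for Ece1, 1.05 to 1.48 for Ednrb, 0.10 to 0.58 for Edn1, -0.35 to 0.29 for Ednra and -1.84 to -1.57 for Aplnr. The Ednrb values of 1.05 and 1.48 rest on its other probe, which became the brighter one without replicate 3 of a group. With normexp background (offset 50, on median spot signals, chosen after the data were seen) Ednrb was 0.99; the cause was not tested. The planned version on mean signals was not run.

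Both members passed in 7 of 15 refits, Ece1 alone in 2 and neither in 6. The refit on the deposited values repeats the reported calls by construction, since those values differ only by a factor per array. It is 1 of the 7 and counts as no separate check. Neither member passed with no filter on dim probes or with the replicate number as a block. Without 1 array, 0 to 1 members, 0 to 0 pathway genes and 12 to 61 genes in all passed (11 to 45 higher, 1 to 26 lower), against 134 (89 and 45). With no filter 3 passed (3 higher, 0 lower), with every probe on its own 203 (136 higher), with the slide as a block 286 (185 and 101), and with the replicate block 5 (4 and 1). The share of calls that lay higher was 66.4% as reported, 100% with no filter, 80% with the replicate block and 51.9% to 91.7% without 1 array. Pcsk5 was lost (0 pathway genes past the threshold) with normexp, median scaling, no filter, the replicate block and each array left out, and 3 pathway genes passed with the slide as a block. Aplnr (-1.69) had a limma adjusted p of 0.186 with no filter, 0.0787 with the replicate block and 0.0152 with the slide as a block. Among the fits with 1 array left out, it passed only without APJ knockout replicate 3 (0.0368, against up to 0.147).

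The arrays give no depth. Edn2, Edn3 and Ece2 were too near background for any alternative to give a ratio.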
